A study of Mus musculus with 4 samples.

Results

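The 10 genes described here encode ligands of the interleukin-1 family (Il1a, Il1b and Il18), the antagonist of the interleukin-1 receptor (Il1rn) and the cytokine Tnf. They also encode the parts of the NLRP3 inflammasome and its output (Nlrp3, Pycard, Casp1, Casp4 and Gsdmd). They were chosen by gene symbol, and all 10 were found among the 49993 genes listed in the count tables. Bulk RNA-seq was made from CD11b+ microglia, the resident macrophages of the brain, purified on magnetic beads from brains of mice aged 10 months. Both groups carried APP/PS1, transgenes that cause amyloid plaques, and differed in asrij, the gene listed as Ociad1: the genotype was APP/PS1+ asrij+/+ in 2 libraries (AD) and APP/PS1+ asrij-/-, a constitutive deletion, in 2 libraries (AD/KO). No library from mice without APP/PS1 was analysed here. The promoter of the transgenes, the sex of the mice and whether the libraries came from separate or pooled animals were not given in the sources used here, so that p-values measure only the spread between these libraries.

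An inflammasome is a protein platform that turns a danger signal into secreted cytokine. Priming, usually through NF-kB, raises the transcripts of Nlrp3 and of the inactive precursor of interleukin-1 beta. A trigger then lets NLRP3 assemble with the adaptor ASC (the product of Pycard) and caspase-1, which cuts the precursors of interleukin-1 beta and interleukin-18 and opens the pore protein gasdermin D. The later steps act on proteins, which transcript counts do not measure. In brains with amyloid plaques, microglia are a known source of interleukin-1 and Tnf.

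The tables held from 13102622 to 19810076 counts per library. Ociad1 had 691 and 1032 reads (50.2 and 63.4 CPM, the count scaled to a TMM-corrected library size) in AD and 746 and 592 reads (38.9 and 32.1 CPM) in AD/KO. It was lower in AD/KO with no overlap, at 62.5% of AD (log2 fold change −0.68, SE 0.29), but its transcript was present in all 4 libraries, and every difference below is between libraries as they are labelled. Over a list of 20 homeostatic microglia markers, which includes P2ry12 and Tmem119, the geometric mean level was 895 and 642 CPM in AD replicates 1 and 2. It was 892 and 266 CPM in AD/KO replicates 1 and 2, so that AD/KO replicate 2 stood lowest and the first replicates of both groups were alike. Summed levels of 15 neuron markers ran the other way, at 698 and 2173 CPM in AD and 1789 and 5485 CPM in AD/KO. The 12 astrocyte markers, at 2880 and 6048 CPM in AD and 6591 and 15550 CPM in AD/KO, were likewise highest in AD/KO replicate 2. AD replicate 2 held 5673 CPM of 18 neutrophil markers, against 444 to 677 CPM in the other libraries. It also had 1391 reads of Xist, a transcript of female cells, against 3 to 15 in the others. In this mark of sex, AD replicate 2 thus differed from the other AD library and from both AD/KO libraries, and the part of sex was not tested. No marker of these 4 lists was at 0 in any library. Neutrophils and monocytes also carry CD11b. In bulk RNA, fewer cells of a type and less RNA per cell cannot be told apart, and the part of these markers in the differences below was not tested.

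All 10 genes had a lower fitted level in AD/KO than in AD, but 0 of 10 passed the test. The test was the quasi-likelihood F-test of edgeR, adjusted by Benjamini-Hochberg over 21439 genes. Over all genes tested, 0% had an adjusted p under 0.05, and the smallest adjusted p was 0.680. The median log2 fold change of the 10 genes was −1.10, beside −0.05 over all genes tested, of which 52.8% had a fold change below 0. In 5 of the 10 genes (Tnf, Il1b, Il1rn, Casp1 and Casp4) the groups did not overlap, with AD/KO the lower, as in 21.7% of all genes tested. Tnf and Il1b had an unadjusted p under 0.05 with a lower level in AD/KO, as did 2.3% of all genes tested. With DESeq2 as the test, 0 of 10 passed, beside 0.42% of all genes tested in either direction. With 2 libraries against 2, an exact two-sided permutation test of a single value cannot go below 0.333.

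**Figure D1:**
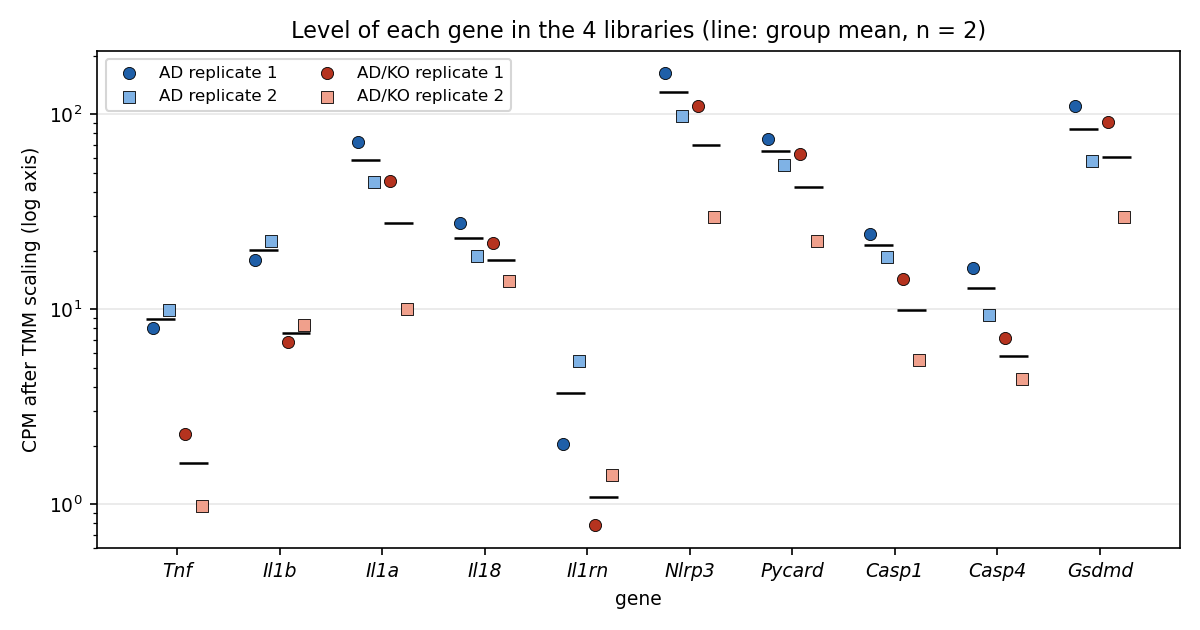
Level of each of the 10 genes in the 4 libraries, as CPM after TMM scaling on a log axis; points are libraries and lines are group means (n = 2). Points of the 2 groups do not overlap for Tnf, Il1b, Il1rn, Casp1 and Casp4, and AD/KO replicate 2 is the lowest point for 8 of the 10 genes, the exceptions being Il1b and Il1rn.

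The sequence around the RefSeq starts of these genes, from 250 bases before to 50 bases after, was read for 9 of the 10 genes (13 windows on GRCm38.p6). Gsdmd had no entry. The letters TATAAA, those of the core promoter element that places the polymerase, were found on either strand in 5 of the 13 windows. These windows belong to 5 of the 9 genes. Over all genes, 13.6% of the 32851 windows of this length held the letters. They began 29 bases before the listed start in Tnf, 31 in Il1b and 32 in Il1a, near the place this element takes in a promoter, and elsewhere in Il18 and Il1rn. The 60 bases up to that start are printed for the 3 genes, with the element in capitals. The stretches are chr17:35202008-35202067 for Tnf, chr2:129371140-129371199 for Il1b and chr2:129309973-129310032 for Il1a, each on the minus strand. The listed starts of Il1a and Il1b lie inside the gene bounds given with their values.
Tnf: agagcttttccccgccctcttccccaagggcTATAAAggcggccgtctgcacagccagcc
Il1b: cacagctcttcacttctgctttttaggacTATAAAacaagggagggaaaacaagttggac
Il1a: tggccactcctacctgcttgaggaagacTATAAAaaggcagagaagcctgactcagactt

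The NF-kB consensus was found on either strand in 3 of the 13 windows, of 2 of the 9 genes (Casp4 and Nlrp3), and in 8.46% of all windows. The stretch printed for Casp4 holds a pair of overlapping matches, and a further match began 39 bases before its start. Each stretch of 60 bases is printed with the match in capitals, at chr9:5308732-5308791 for Casp4 and chr11:59541359-59541418 for Nlrp3, both on the plus strand. The capitals begin 93 bases before the gene start in Casp4 and 186 bases before it in Nlrp3.
Casp4: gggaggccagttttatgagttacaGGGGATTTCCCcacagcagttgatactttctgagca
Nlrp3: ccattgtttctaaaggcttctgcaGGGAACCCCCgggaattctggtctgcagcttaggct

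The letters TGANTCA, an AP-1 site, were found in 2 of the 13 windows, of 2 of the 9 genes (Il1a and Il1rn), and in 7.81% of all windows. A PU.1 site, GAGGAAGT, was found in 1 of the 13 windows (Pycard) and in 3.2% of all windows. Of the 8 genes with a match to at least 1 of the 4 motifs, the groups overlapped in CPM in 4 (Il1a, Il18, Nlrp3 and Pycard). They were apart with AD/KO the lower in 4 (Tnf, Il1b, Il1rn and Casp4), beside 21.7% of all genes tested. Casp1, which had no match, was apart too, and a link between motif and difference was not tested. A match is a description of these letters only.

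Tnf, the cytokine that signals through Tnfrsf1a and Tnfrsf1b, showed the largest difference of the 10. Tnf (gene ID 21926, GRCm38.p6, chromosome 17, 35199367 to 35202007, minus strand) stood at 7.98 and 9.90 CPM in AD and at 2.29 and 0.977 CPM in AD/KO. Both AD libraries were more than 3 times as high as either AD/KO library. The group levels were 8.94 ± 1.35 CPM (SD, n = 2) and 1.64 ± 0.931 CPM (SD, n = 2), with AD/KO at 18.3% of AD. The log2 fold change was −2.44 (SE 0.61, 95% interval −4.01 to −0.88), with an unadjusted p of 0.0103 and an adjusted p of 0.680 (edgeR quasi-likelihood, Benjamini-Hochberg). The counts are low, at 110 and 161 reads in AD and 44 and 18 reads in AD/KO. The broken line of Bag6, a gene 52045 bases from Tnf, names alternate contigs of chromosome 17, and how reads that match several places were counted was not given in the sources used here.

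Il1b, the secreted cytokine whose precursor is cut by caspase-1, was also lower in both AD/KO libraries. Il1b (gene ID 16176, chromosome 2, 129364569 to 129371164, minus strand) stood at 17.9 and 22.4 CPM in AD and at 6.78 and 8.30 CPM in AD/KO. The libraries of each group lay close together, and the AD/KO mean was 37.4% of the AD mean. The group levels were 20.2 ± 3.19 CPM (SD, n = 2) and 7.54 ± 1.08 CPM (SD, n = 2). The log2 fold change was −1.42 (SE 0.35, 95% interval −2.33 to −0.51), with an unadjusted p of 0.0106 and an adjusted p of 0.680 (edgeR quasi-likelihood, Benjamini-Hochberg). Il1b overlaps the exons of the antisense gene Il1bos, which had only 10 to 16 reads per library.

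Il1a, which is active without being cut and works as an alarm signal of damaged cells, was lower in AD/KO on average, but its groups overlapped. Il1a (gene ID 16175, chromosome 2, 129299609 to 129310186, minus strand) stood at 72.2 and 45.1 CPM in AD and at 45.4 and 10.1 CPM in AD/KO. AD replicate 2 and AD/KO replicate 1 were at nearly the same level, with AD/KO replicate 2 far below them. Its fold change of −1.08 on the log2 scale (SE 0.75) had a 95% interval from −3.02 to 0.86. Without AD/KO replicate 2 it was −0.36, and without AD/KO replicate 1 it was −2.49. The non-coding gene Gm14023 shares exon sequence with Il1a on the other strand. Its counts were 199 and 135 in AD and 99 and 38 in AD/KO, and whether the counting used strand was not given in the sources used here.

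Il18, the other cytokine released by caspase-1, showed the smallest difference of the 10. Il18 (gene ID 16173, chromosome 9, 50554700 to 50581841, plus strand) stood at 27.8 and 18.7 CPM in AD and at 21.8 and 13.9 CPM in AD/KO, so that the groups overlapped. Its log2 fold change was −0.38 (SE 0.40), with a 95% interval from −1.41 to 0.65. With libraries scaled to the homeostatic markers it was 0.35, in the other direction.

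Il1rn, the secreted antagonist that occupies the interleukin-1 receptor without signalling, was the lowest in AD of the 9 genes ranked per transcript length. Il1rn (gene ID 16181, chromosome 2, 24336860 to 24351491, plus strand) stood at 2.03 and 5.41 CPM in AD and at 0.782 and 1.41 CPM in AD/KO. The groups did not overlap, but AD replicate 2 was far above the other 3 libraries. These values rest on 28 and 88 reads in AD and 15 and 26 reads in AD/KO. Its log2 fold change of −1.76 (SE 0.75, 95% interval −3.70 to 0.18) was −0.83 without AD replicate 2, the library with the highest neutrophil markers. With all libraries the adjusted p was 0.680 (edgeR quasi-likelihood, Benjamini-Hochberg).

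Nlrp3, the sensor that gives the platform its name, overlapped between the groups. Nlrp3 (gene ID 216799, chromosome 11, 59541569 to 59566955, plus strand) stood at 162 and 97.7 CPM in AD and at 110 and 29.7 CPM in AD/KO. AD/KO replicate 1 lay between the AD libraries, and AD/KO replicate 2 was far below them. The log2 fold change was −0.89 (SE 0.69, 95% interval −2.67 to 0.89). It was −0.23 without AD/KO replicate 2 and −2.08 without AD/KO replicate 1.

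Pycard, which encodes the adaptor ASC, followed the same order of libraries. Pycard (gene ID 66824, chromosome 7, 127991373 to 127993867, minus strand) stood at 74.5 and 55.0 CPM in AD and at 62.7 and 22.5 CPM in AD/KO. On the log2 scale the fold change was −0.60 (SE 0.55, 95% interval −2.02 to 0.81), and −0.04 without AD/KO replicate 2. Pycard shares 485 bases of exon sequence with Gm45205 on the other strand. Unlike Gm14023, Gm45205 was not among the genes counted, and whether the counting used strand was not given in the sources used here. Gsdmd, the pore protein cut by the inflammatory caspases, had the same order again. Gsdmd (gene ID 69146, chromosome 15, 75862144 to 75867408, plus strand) stood at 111 and 57.9 CPM in AD and at 91.8 and 29.7 CPM in AD/KO. Its log2 fold change of −0.47 (SE 0.64, 95% interval −2.13 to 1.19) turned to 0.13 without AD/KO replicate 2 and to 0.07 without AD replicate 1.

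The 2 inflammatory caspases are neighbours on chromosome 9, and the groups of both were apart, with AD/KO the lower. Casp1 (gene ID 12362, chromosome 9, 5298517 to 5307281, plus strand), the protease of the platform, stood at 24.2 and 18.6 CPM in AD and at 14.3 and 5.48 CPM in AD/KO. Casp4 (gene ID 12363, chromosome 9, 5308849 to 5336791, plus strand), the mouse caspase that senses intracellular lipopolysaccharide, stood at 16.3 and 9.40 CPM in AD and at 7.09 and 4.396 CPM in AD/KO. The AD/KO means were 46.1% and 44.6% of the AD means. The log2 fold change was −1.12 (SE 0.55, 95% interval −2.54 to 0.30) for Casp1 and −1.16 (SE 0.49, 95% interval −2.44 to 0.12) for Casp4. Their adjusted p was 0.680 each (edgeR quasi-likelihood, Benjamini-Hochberg). Without AD/KO replicate 2 the value of Casp1 was −0.57, and without AD replicate 1 that of Casp4 was −0.72.

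**Figure D2:**
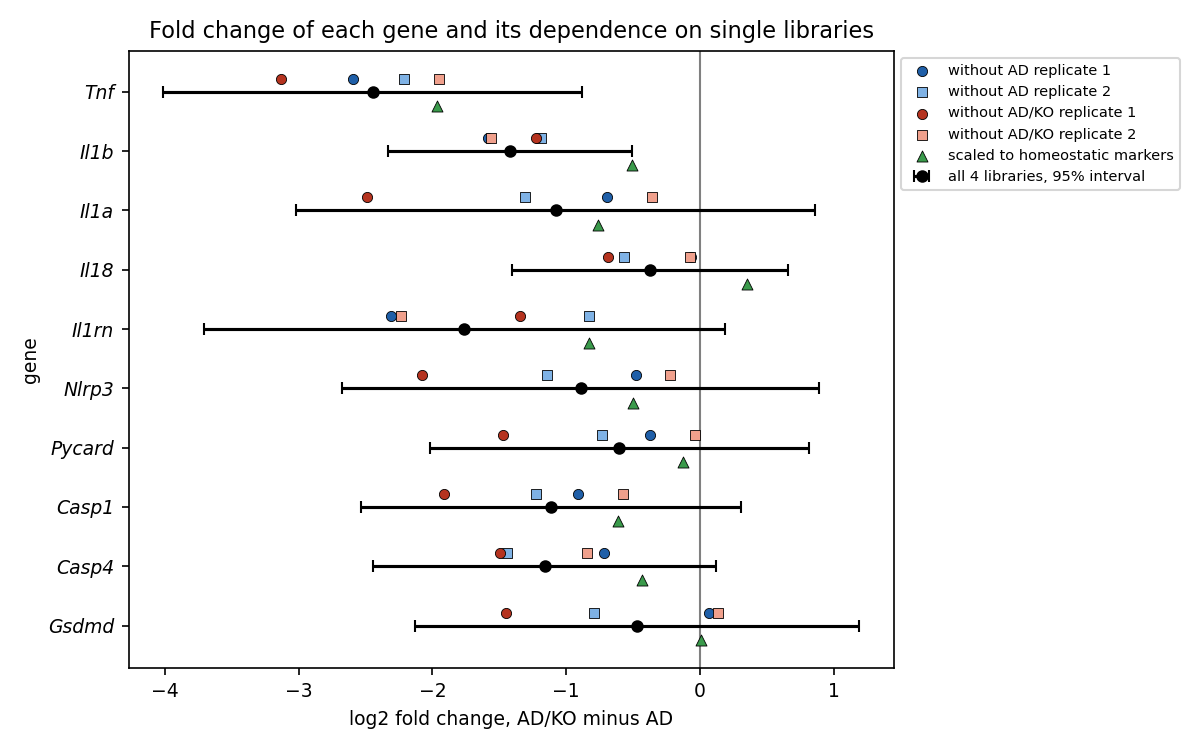
Log2 fold change of AD/KO minus AD for each gene from the edgeR fit on all 4 libraries (black points, with 95% intervals), with 1 library left out (coloured points) and with libraries scaled to the homeostatic markers (green triangles). The intervals of Tnf and Il1b lie below 0 before adjustment for multiple tests, and every point of Tnf is at −1.95 or lower, while points of Il18 and Gsdmd cross 0.

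Levels between genes were compared as CPM per kilobase of the principal GENCODE M21 transcript. In AD the order was Gsdmd at 47.0 ± 20.8, Nlrp3 at 32.3 ± 11.4, Il1a at 29.7 ± 9.73 and Il18 at 27.0 ± 7.49 CPM per kilobase (SD, n = 2 each), and these 4 did not differ beyond their spread. Below them came Il1b at 14.9 ± 2.35, Casp1 at 14.3 ± 2.65 and Casp4 at 8.97 ± 3.41 CPM per kilobase. Of these, Il1b and Casp1 did not differ beyond their spread. Tnf at 5.46 ± 0.825 and Il1rn at 1.5 ± 0.965 CPM per kilobase were the lowest. In AD/KO, Il18 at 20.8 ± 6.49 CPM per kilobase and Gsdmd at 33.9 ± 24.5 had the highest means, but did not differ beyond their spread from Nlrp3 at 17.4 ± 14.1 and Il1a at 14.04 ± 12.6, and Il1rn at 0.443 ± 0.180 and Tnf at 0.998 ± 0.568 again came last. Pycard was left out of the order, since its GENCODE transcript of 3800 bases is longer than its whole RefSeq locus of 2495 bases.

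Dividing each level by the geometric mean of the homeostatic markers in the same library changed which genes separated the groups. On that scale the groups were apart, with AD/KO the lower, in 4 of the 10 genes (Tnf, Il1a, Nlrp3 and Casp1), as in 7.26% of all genes tested. Tnf stood at 0.892% and 1.54% of the marker level in AD and at 0.257% and 0.367% in AD/KO, with no overlap. Il1a stood at 8.07% and 7.02% in AD and at 5.08% and 3.79% in AD/KO. Its groups, which overlapped in CPM, were apart here.

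Nlrp3 stood at 18.1% and 15.2% of the marker level in AD and at 12.4% and 11.2% in AD/KO. Casp1, at 2.71% and 2.90% in AD and 1.60% and 2.06% in AD/KO, was with Tnf 1 of the 2 genes whose groups were apart on both scales. The share of all genes apart on both scales was not counted. Il1b overlapped on this scale, at 2.004% and 3.50% in AD and 0.760% and 3.12% in AD/KO. Relative to the markers, AD/KO replicate 2 thus lay between the AD libraries in Il1b and below them in Tnf. Gsdmd and Pycard were nearly level, at 9.02% to 12.4% and at 7.02% to 8.57% over the 4 libraries.

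**Figure D3:**
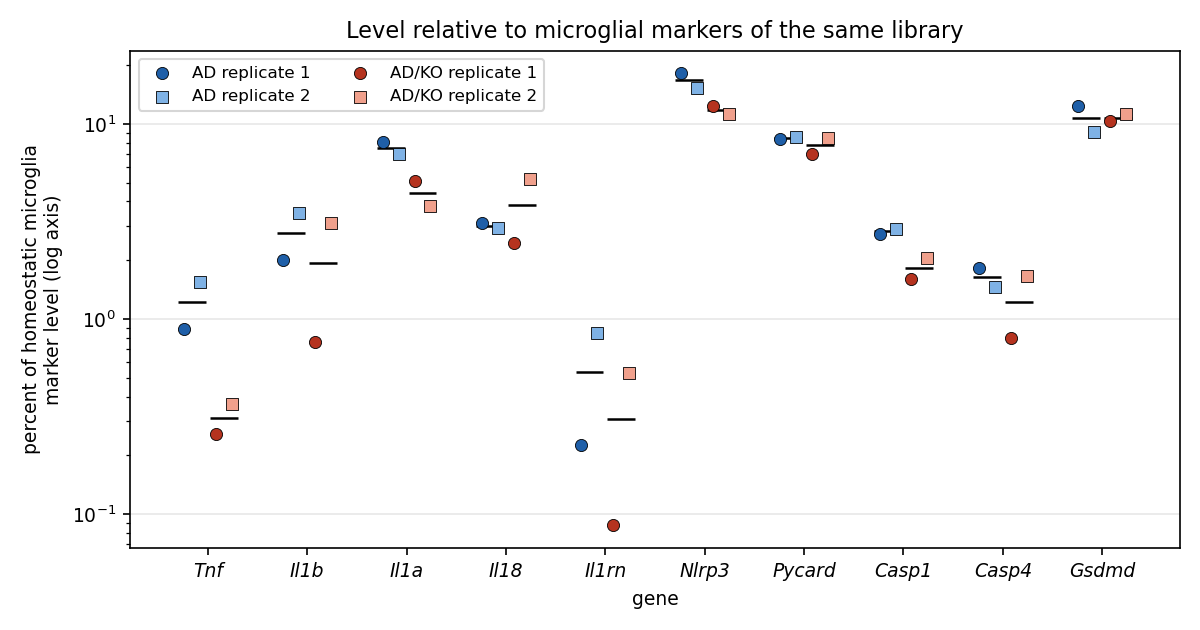
Level of each gene as a percentage of the geometric mean of 20 homeostatic microglia markers in the same library, on a log axis; points are libraries and lines are group means (n = 2). The groups are apart for Tnf, Il1a, Nlrp3 and Casp1, and the points of Pycard and Gsdmd lie close together.

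In an edgeR fit with libraries scaled to these markers, the median log2 fold change of the 10 genes was −0.51, beside 0.78 over all genes tested. That scaling moved the median of all genes up from −0.05. Tnf was at −1.97 in that fit and Il1b at −0.51, with 0 of 10 genes past the threshold (edgeR quasi-likelihood, Benjamini-Hochberg adjusted p from 0.709 to 0.999). AD replicate 1 and AD/KO replicate 1, a pair chosen after the data were seen, had nearly equal homeostatic marker levels. They gave a comparison of 1 library with 1, with no test. Between them, Tnf in AD/KO was at 28.7% of AD, Il1b at 37.8%, Il1rn at 38.5%, Casp4 at 43.4% and Casp1 at 58.9%. Il1a was at 62.8%, Nlrp3 at 67.9%, Il18 at 78.6%, Gsdmd at 82.9% and Pycard at 84.2%. All 10 genes were thus lower in that pair, with Tnf furthest apart, but the share of all genes lower in it was not counted. On the first principal component of the genes tested, with 79.1% of the variance, AD replicate 1 stood at −102.6 and AD/KO replicate 1 at −5.02. AD replicate 2 stood at −3.93 and AD/KO replicate 2 at 111.5. The first replicates were also unlike in other markers. Summed monocyte markers were at 256 CPM in AD and 103 CPM in AD/KO. Neuron markers were at 698 and 1789 CPM and astrocyte markers at 2880 and 6591 CPM. The part of these markers was not tested. In the pair of second replicates, whose marker levels differed, Tnf was again furthest apart at 9.87%, and Il1b at 37.0% came after Il1a (22.4%), Il1rn (26.1%), Casp1 (29.4%) and Nlrp3 (30.5%).

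Shares within a library do not depend on its scaling. Il1b made up 19.9% of the reads of Il1b plus Il1a in AD replicate 1 (exact 95% interval 17.7% to 22.2%) and 33.2% in AD replicate 2 (30.5% to 36.1%). It made up 13% in AD/KO replicate 1 (10.98% to 15.2%) and 45.1% in AD/KO replicate 2 (39.8% to 50.6%). The second replicate was higher in both groups, and the groups overlapped. The antagonist Il1rn made up 10.2% and 19.4% of the reads of Il1rn plus Il1b in AD and 10.3% and 14.5% in AD/KO, again with overlap. Tnf made up 30.8% and 30.6% of the reads of Tnf plus Il1b in AD, and 25.3% and 10.5% in AD/KO. The share of Tnf was thus lower in both AD/KO libraries, although the interval of AD/KO replicate 1 (19.0% to 32.4%) held both AD values. These Clopper-Pearson intervals cover counting error only.

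**Figure D4:**
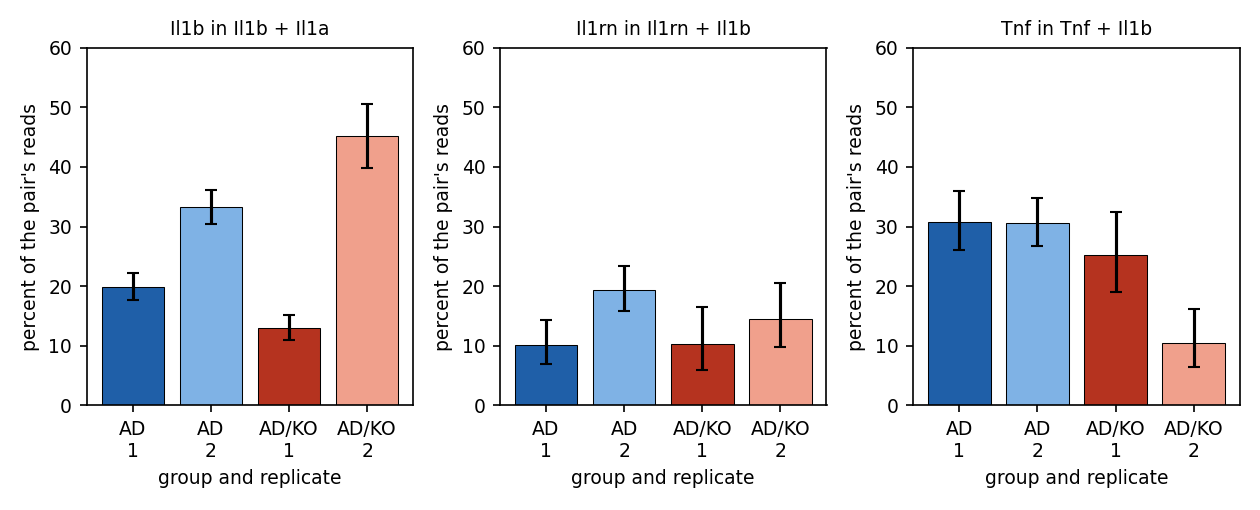
Share of reads taken by Il1b in Il1b plus Il1a, by Il1rn in Il1rn plus Il1b and by Tnf in Tnf plus Il1b, in percent, for each library; bars are libraries and error bars are exact 95% binomial intervals. The share of Il1b is higher in the second replicate of each group, and the share of Tnf is lowest in AD/KO replicate 2, at 10.5%.

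Other CD11b+ cells express some of these genes, so their markers are given beside them. Ly6g, which marks neutrophils, stood at 1.74 and 16.6 CPM in AD and at 2.19 and 2.44 CPM in AD/KO, and S100a8 at 51.4 and 800 CPM in AD and at 59.6 and 64.5 CPM in AD/KO. AD replicate 2 was the high library for both. Without it the log2 fold change was −2.21 for Tnf, −1.19 for Il1b, −1.22 for Casp1, −1.44 for Casp4 and −0.83 for Il1rn, the last down in size from −1.76. In that fit AD is 1 library, assumed to vary like those of AD/KO, so that only the size of the values is given here. Of the 10 monocyte markers, 8 had groups that did not overlap, with AD/KO the lower, beside 21.7% of all genes tested. Ccr2, the receptor that brings monocytes to inflamed tissue, stood at 39.8 and 40.0 CPM in AD and at 10.3 and 6.13 CPM in AD/KO. The summed monocyte markers were at 256 and 659 CPM in AD and 103 and 155 CPM in AD/KO, and those of border macrophages at 141 and 104 CPM in AD and 71.8 and 61.9 CPM in AD/KO. Both were lower in AD/KO, as were the 5 genes whose groups did not overlap, and their part in those differences was not tested. Summed immediate early, stress and chemokine genes, which can respond to cell isolation, were at 475 and 419 CPM in AD and 396 and 248 CPM in AD/KO. Of these 17 genes, the groups were apart with AD/KO the lower in 7 (Ier2, Ier3, Atf3, Nfkbiz, Rgs1, Ccl3 and Ccl4), beside 21.7% of all genes tested. They were apart with AD/KO the higher in 4 (Fos, Fosb, Egr1 and Hspa1b), beside 20.3% of all genes tested. The lower ones went down to 16.1% of AD (Ccl3) and the higher ones up to 367% (Fosb).

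Genes of interleukin-1 and interleukin-18 signalling, among them receptors and adaptors, were described with a list of 21 genes. It also held Il33 (log2 fold change 0.60, SE 0.65, groups overlapping), Il36g and Il36rn, other members of the interleukin-1 family. Of the 21 genes, 20 passed the filter on low counts and 0 passed the test in either direction. The median log2 fold change was −0.48, with 16 of 20 genes below 0, where 52.8% of all genes tested were. The groups were apart with AD/KO the lower in 9 of the 20, beside 21.7% of all genes tested. They were apart with AD/KO the higher in 2 (Tab1 and Tollip, both signalling adaptors, named after their values were seen), beside 20.3% of all genes tested. Il1r1, the signalling receptor of interleukin-1, was at 7.02 ± 1.11 CPM in AD and 3.72 ± 0.421 CPM in AD/KO (SD, n = 2 each), with no overlap. The decoy receptor Il1r2 was at 1.45 and 6.64 CPM in AD and 0.574 and 1.47 CPM in AD/KO, highest in AD replicate 2. The shared chain Il1rap, by contrast, was at 19.6 ± 4.34 and 18.8 ± 1.999 CPM (SD, n = 2 each), a log2 fold change of −0.06 (SE 0.33).

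Il18rap, a chain of the interleukin-18 receptor, had the smallest p of this list. It stood at 8.42 and 25.6 CPM in AD and at 4.38 and 4.99 CPM in AD/KO (log2 fold change −1.86, SE 0.63). Without AD replicate 2, the value was −0.78. Its partner Il18r1 was low, at 13 and 48 reads in AD and 11 and 12 reads in AD/KO, with a log2 fold change of −1.66 (SE 0.80) that was −0.56 without AD replicate 2. The soluble inhibitor Il18bp was at 16.6 ± 2.53 CPM in AD and 12.6 ± 1.67 CPM in AD/KO (SD, n = 2 each). Myd88, the adaptor shared by these receptors and most Toll-like receptors, overlapped between the groups, with a log2 fold change of −0.44 (SE 0.53) that was 0.11 without AD/KO replicate 2. Il1rl1, the receptor of interleukin-33, stood at 19.8 and 18.4 CPM in AD and at 10.7 and 4.50 CPM in AD/KO (log2 fold change −1.33, SE 0.51). Irak3, an inhibitor of the pathway, was at 12.04 ± 3.48 CPM in AD and 4.88 ± 2.53 CPM in AD/KO (SD, n = 2 each).

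Other inflammasome and pyroptosis genes made up a list of 31, of which 27 passed the filter on low counts and 0 passed the test in either direction. The median log2 fold change was −0.72, with 26 of 27 below 0, where 52.8% of all genes tested were. The groups were apart with AD/KO the lower in 14 of the 27, beside 21.7% of all genes tested. They were apart with AD/KO the higher in 0, beside 20.3% of all genes tested. Zbp1, a sensor of unusual nucleic acids that is induced by interferon, stood at 7.48 and 4.86 CPM in AD and at 1.72 and 0.977 CPM in AD/KO. Its log2 fold change was −2.18 (SE 0.59), and leaving out any 1 library gave −2.60 to −1.83. Mefv, which encodes pyrin, stood at 3.48 and 8.48 CPM in AD and at 1.36 and 1.30 CPM in AD/KO (log2 fold change −2.17, SE 0.65). It was −1.32 without AD replicate 2. Pstpip1, a binding partner of pyrin, was at 24.8 ± 8.81 CPM in AD and 12.2 ± 2.02 CPM in AD/KO (SD, n = 2 each). Its log2 fold change of −1.02 (SE 0.40) was −0.54 without AD replicate 2.

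The DNA sensor Aim2 was at 185 and 114 CPM in AD and at 108 and 35.1 CPM in AD/KO. Its groups did not overlap, with a log2 fold change of −1.06 (SE 0.62) that was −0.45 without AD/KO replicate 2. Naip6, 1 of the receptors that bring bacterial proteins to Nlrc4, was at −1.13 on the log2 scale (SE 0.57). In sequence it is 96.9% identical to Naip5 over 4398 bases, so its counts are uncertain. Nlrc4 itself was low, at 3.21 ± 0.330 CPM in AD and 1.70 ± 0.177 CPM in AD/KO (SD, n = 2 each). Nlrp1b was at 293 and 89.1 CPM in AD and at 171 and 53.1 CPM in AD/KO, and Nlrp1a at 30.1 and 7.68 CPM in AD and at 23.6 and 8.14 CPM in AD/KO. Both overlapped between groups and were higher in the first replicate of each. P2rx7, the ATP receptor that triggers NLRP3, was at 308 and 179 CPM in AD and 221 and 68.5 CPM in AD/KO (log2 fold change −0.75, SE 0.66). Nek7, a kinase that NLRP3 needs to assemble, was at 113 ± 16.6 CPM in AD and 89.2 ± 6.72 CPM in AD/KO (SD, n = 2 each).

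The Tnf system was a list of 26 genes, of which 24 passed the filter on low counts and 0 passed the test in either direction. The median log2 fold change was −0.53, with 23 of 24 below 0, where 52.8% of all genes tested were. In the same fit, the homeostatic microglia markers P2ry12, P2ry13 and Tmem119 were at −0.51, −0.30 and 0.08. The pathway lists were not set against those markers, whose part was not tested. Of the 24 genes, the groups were apart with AD/KO the lower in 8, a share not far from the 21.7% of all genes tested. They were apart with AD/KO the higher in 1 (Timp3), beside 20.3% of all genes tested. Both Tnf receptors overlapped between the groups. Tnfrsf1a was at 133 and 93.2 CPM in AD and 123 and 48.1 CPM in AD/KO (log2 fold change −0.40, SE 0.53). Tnfrsf1b was at 342 and 216 CPM in AD and 297 and 98.4 CPM in AD/KO (log2 fold change −0.49, SE 0.63). Without AD/KO replicate 2 the values were 0.13 and 0.10. The difference between Tnf and its receptors was not tested.

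Adam17, the protease that frees Tnf from the cell surface, was at 175 ± 48.5 CPM in AD and 120 ± 69.3 CPM in AD/KO (SD, n = 2 each), with overlapping groups. Rhbdf2, which Adam17 needs to mature, stood at 30.8 and 29.6 CPM in AD and at 22.5 and 9.12 CPM in AD/KO (log2 fold change −0.93, SE 0.50). Ripk3, a kinase of necroptosis, was at 4.80 ± 0.187 CPM in AD and 1.82 ± 0.813 CPM in AD/KO (SD, n = 2 each), a log2 fold change of −1.39 (SE 0.58). Tnfaip2, a gene induced by Tnf, had a log2 fold change of −0.99 (SE 0.44). Timp3, an inhibitor of Adam17 that astrocytes and vascular cells also make, was the only gene of this list with a fold change above 0. It stood at 21.1 and 42.7 CPM in AD and at 59.4 and 148 CPM in AD/KO, in the order of the astrocyte markers. The part of those markers in it was not tested.

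**Figure D5:**
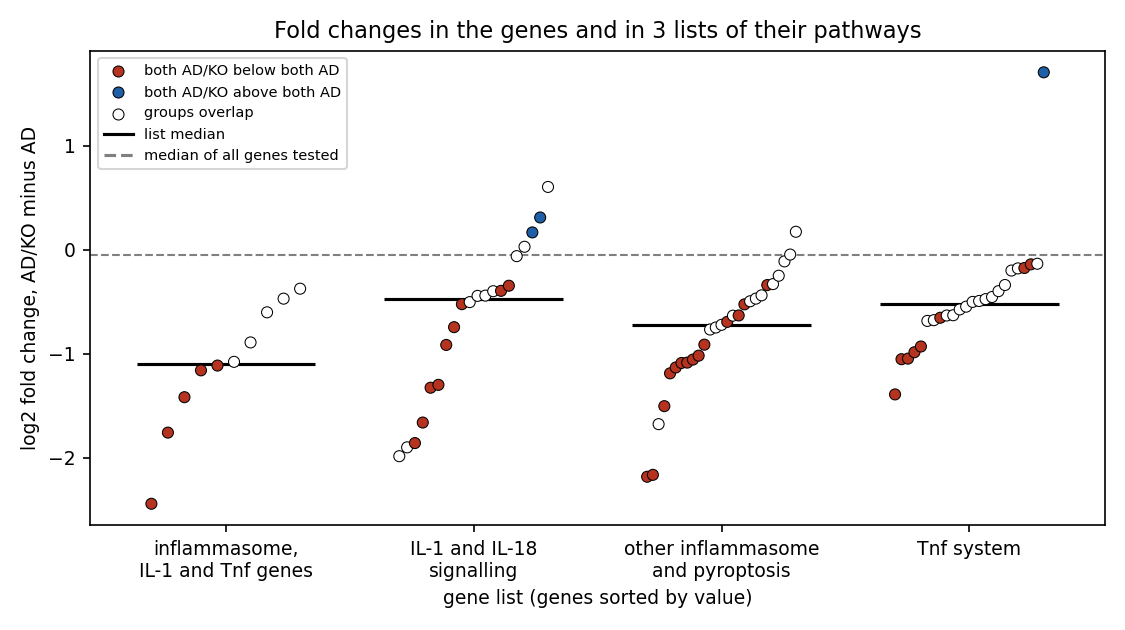
Log2 fold changes of AD/KO minus AD for the 10 genes and for the tested genes of 3 pathway lists, sorted within each list; red points mark genes with both AD/KO libraries below both AD libraries, blue points those above, black lines list medians and the dashed line the median of all genes tested. The medians are −1.10, −0.48, −0.72 and −0.53, all below the −0.05 of all genes, and Timp3 is the point highest above 0.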

How the data were processed

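The authors deposited, for each of the 4 libraries, raw counts of reads by gene symbol. Per the submitters' processing notes, HISAT2, SAMtools, Subread featureCounts, FastQC and DESeq2 1.30.0 were used with build mm10; strand use, multi-mapping rules and the annotation were not given in the sources used here. Per the labels' protocols, ribosomal RNA was depleted and libraries were stranded. In each table, 11 broken lines held no count (Bag6, Huwe1, Mycbp2 and Neb), and 0 columns were left without a sample.

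The genes and lists were chosen with earlier results of these data known. Counts were tested with edgeR 4.0.16 in R 4.3.3 on all 4 libraries without covariates: filterByExpr (minimum count 10, minimum total 15), TMM scaling, quasi-likelihood F-test, Benjamini-Hochberg adjustment over all genes tested, threshold 0.05. The standard error is the fold change over the square root of F, and intervals use the fit's degrees of freedom. Marker means used a pseudocount of 0.5 CPM. The procedure was run on simulated data, with changes larger than those of the genes described here and the same spread for every gene. That run cannot say how the procedure performs on smaller changes or on libraries as unlike as these.

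All 10 genes, Ociad1, receptors, sensors and adaptors fixed by name and, from each pathway list, the top 4 by p were to be named. The first 3 genes of a marker list were allowed. Other genes were named for a stated reason after their values were seen. These were Tmem119, Xist, Gm14023, Gm45205, Il1bos, Bag6, Naip5, Tab1, Tollip, Fosb, Egr1, Hspa1b, Ier2, Ier3, Atf3, Nfkbiz, Rgs1, Ccl3 and Ccl4. Il33, Il36g and Il36rn were also named in this way. The lists share a few genes (Chil3, F13a1, Zfp36). Il36g and Il36rn were read under their older symbols. The alternatives tried were scaling to the homeostatic markers or by DESeq2 size factors, the test of DESeq2 1.42.0, 2 other filters, the replicate number as a block, and each library left out. Near-identical transcripts were searched in GENCODE M21 with BLAST 2.17.0 (95% identity or more over 100 bases or more). Coordinates, gene IDs and promoter sequences are from RefSeq GRCm38.p6.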

Additional observations from a re-analysis of the deposited data

How the results depend on the processing

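Over all genes, 0 passed the adjusted threshold of 0.05 in edgeR (1072 by unadjusted p), 90 passed with the test of DESeq2, and from 0 to 524 with 1 library left out (524 without AD replicate 2, 48 without AD replicate 1). A fit with 1 library left out assumes that the lone library of its group varies like the other group. The number of the 10 genes called was 0 in each of these fits. On all 4 libraries, 2 of the 10 had an unadjusted p under 0.05 in edgeR, beside 1072 of 21439 genes tested. With the test of DESeq2, 3 of the 10 did, beside 2325 of 21439. Both groups use the replicate numbers 1 and 2, with no label that ties a number to a litter or day. Across genes, libraries of 1 number deviated together from the means of their groups (correlation 0.72). With the replicate block, 4333 genes were called (20.2% of those tested), among them 7 of the 10 (Tnf, Il1b, Il1a, Il1rn, Nlrp3, Casp1 and Casp4); the cause was not tested.

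The median log2 fold change of the 10 genes was −1.10. It was −0.51 with scaling to the homeostatic markers, −0.72 between AD replicate 1 and AD/KO replicate 1 alone (chosen after seeing the data), and ran from −1.48 (without AD/KO replicate 1) to −0.47 (without AD/KO replicate 2) and was −0.71 without AD replicate 1. With scaling to the homeostatic markers the direction changed for Il18 (0.35), Gsdmd (0.0051), Ociad1 (0.085), Il1rap (0.82), Il18bp (0.51), Myd88 (0.028), Tnfrsf1a (0.12), Adam17 (0.0043), Nek7 (0.51) and Nlrp1a (0.32). With 1 library left out, the ranges that crossed 0 were −1.45 to 0.13 for Gsdmd, −0.29 to 0.24 for Il1rap, −1.28 to 0.11 for Myd88, −1.18 to 0.13 for Tnfrsf1a, −1.45 to 0.10 for Tnfrsf1b, −1.16 to 1.04 for Nlrp1a and −1.80 to 0.33 for Nlrp1b. Of 100 values of the 10 genes under alternatives, 89 changed neither direction nor call, 7 passed the threshold (all with the replicate block) and 4 changed direction. Only Il18 and Gsdmd changed direction in any of the 10 alternatives. Tnf, like the rest, kept its direction, and ran from −3.13 to −1.95.

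Tnf and Il1rn had from 15 to 161 reads per library, so that counting error limits them most.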
